A study of Homo sapiens with 12 samples.

Results

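The genes described here are 34 components of the actin cytoskeleton, comprising actins, tropomyosins, nonmuscle myosin II subunits, calponins, filament crosslinkers, formins, monomer-binding proteins and the transcription factor SRF. They were picked as a list of names, with earlier results of these data known, from the rows of a table of read counts for 23459 genes. All 34 were found under their Entrez gene IDs. A filter on low counts kept 33 of them among the 14775 genes tested, and the one left out was CNN1, the calponin of smooth muscle, with at most 4 reads in any library.

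RNA sequencing had been done on MCF10A cells, an immortalised and non-tumorigenic human mammary epithelial line, to ask how JUN overexpression alters the expression of YAP target genes. All 12 libraries carried the same doxycycline-inducible YAP5SA allele (iYAP5SA), which encodes a hyperactive YAP that escapes inhibition by the Hippo pathway. An empty vector or a vector carrying JUN was introduced by infection, infected cells were selected with antibiotic, and cultures received 100 ng/ml of doxycycline (Dox) or, as control, ethanol (EtOH). The 4 groups of 3 libraries are called vector EtOH and vector Dox, and JUN EtOH and JUN Dox. Whether the iYAP5SA line was derived from 1 clone is not given in the sources used here. Cells without the YAP5SA allele were not given Dox among these libraries, so responses to doxycycline itself and to YAP5SA cannot be told apart. The study's methods call the libraries of a group biological replicates without saying whether they were separate cultures, so the p-values measure the spread between these libraries, which may be technical.

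Actin monomers assemble into filaments that crosslinkers bundle, tropomyosins and calponins coat, and myosin II pulls on. Formins and profilin speed assembly, whereas cofilin severs filaments and thymosins hold monomers in reserve. SRF binds the CArG box, a short A/T-rich element in the promoters of many cytoskeletal genes, and its MRTF coactivators enter the nucleus when free actin monomer becomes scarce. YAP responds to the tension that this filament system carries and acts on DNA through TEAD factors, while JUN is a subunit of AP-1.

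Total counts ran from 18594867 to 28993487 per library, and the 34 genes together took 2.09% to 2.79% of the counts. Levels are given as CPM, which are counts scaled to the effective size of each library, and 3 counts corresponded to 0.107 to 0.15 CPM. Both manipulations were visible in the libraries. JUN was higher by 4.75 on the log2 scale in JUN EtOH than in vector EtOH (SE 0.18, edgeR adjusted p 1.74e-10), and the YAP targets CCN1 and CCN2 rose by 4.79 and 3.47 in vector Dox over vector EtOH. Reads on YAP1 itself were higher by 0.40 on induction in vector cells, which did not pass the threshold (edgeR adjusted p 0.0819). JUN also rose on induction in vector cells, by 1.99 (SE 0.16, edgeR adjusted p 3.09e-07), so the vector Dox cells were not without extra JUN.

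All 9 markers of mammary basal epithelium examined, among them KRT5 and TP63, lay above the detection floor in every group. Their summed level was 10230 to 11150 CPM in vector EtOH against 5777 to 7140 CPM in vector Dox, and 10670 to 12150 CPM in JUN EtOH against 6895 to 9580 CPM in JUN Dox, lower in both Dox groups than in the matching EtOH group. The 8 smooth muscle markers summed to 27.2 to 50.2 CPM in any library, with 14.96 to 26.9 CPM of ACTA2, which is itself one of the 34 genes. DES, ACTG2, MYOCD, LMOD1 and CNN1 of this list were at or under the floor in at least 1 group. MYH11, SYNM and ACTA2 passed the filter on low counts. MYH11 changed on induction by -0.38 in vector and -0.35 in JUN cells (edgeR adjusted p 0.0202 and 0.0371). SYNM changed by -1.04 on induction in vector cells and by 1.31 with JUN in induced cells (edgeR adjusted p 0.0119 and 0.00219). Those SYNM comparisons share the vector Dox libraries. The 5 striated muscle markers summed to 9.65 to 21.0 CPM. COL1A2 and COL3A1, defining fibroblast collagens, stood at or under the floor in every group, and the 7 fibroblast markers, which summed to 111 to 161.6 CPM, were made up largely of PDGFRA at 92.3 to 132.3 CPM (group means). Beneath this sum, LUM and DCN were higher with JUN, by 3.09 and 1.56 without and 2.55 and 1.95 with induction on the log2 scale, reaching group means of 6.10 and 17.7 CPM. The epithelial adhesion gene EPCAM was lower with JUN, by 1.76 without and 1.94 with induction. Whether these marker changes played a part in the values below was not tested, and in bulk RNA a smaller number of cells of a type and less RNA per cell cannot be told apart.

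A few libraries stood apart from the others of their group. Vector Dox replicate 1 was higher than replicates 2 and 3 in genes with short transcripts, with a correlation across genes of -0.24 between exon length and deviation from the group mean against 0.21 and 0.11 in the other libraries. Within this gene set it held 1586 CPM of the thymosin TMSB10 against 767 and 841 CPM, and 1274 CPM of the filamin FLNA against 2193 and 2203 CPM. JUN Dox replicates 1 and 3 differed in GC trend, with correlations across genes of -0.36 and 0.36 between exon GC content and deviation. JUN Dox replicate 3 was the highest of its group for 27 of the 33 tested genes and replicate 1 the lowest for 24. Other groups were close to this. JUN EtOH replicate 3 was the highest for 24 and replicate 2 the lowest for 22, and vector EtOH replicate 2 was the lowest for 22. The GC trends of JUN EtOH replicates 1 and 3 were -0.20 and 0.22, and the length trend of vector EtOH replicate 2 was -0.16. Calls lost or gained without 1 of these libraries are given with the genes below.

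Compared per kilobase of exon in vector EtOH, levels of the tested genes spanned from 2400 CPM per kb for TMSB10 and 2150 CPM per kb for the cytoplasmic actin ACTB down to 0.049 CPM per kb for MYLK, the kinase of the myosin regulatory light chain. The length used joins all annotated exons of a gene, 31537 bases for MYLK, 14700 for TPM1 and 461 for TMSB10. Where the expressed transcript is shorter than this, the value is too low, so the order is approximate. The second cytoplasmic actin ACTG1 followed at 965 ± 99 CPM per kb and profilin (PFN1) at 818 ± 67 CPM per kb (SD, n = 3), which lie within their joint spread. Near the lower end, smooth muscle actin ACTA2 stood at 4.02 ± 0.27 CPM per kb and TAGLN at 4.49 ± 0.43, within their joint spread, followed by the tropomyosin TPM1 at 2.66 ± 0.14 and the regulatory light chain MYL9 at 1.95 ± 0.22 CPM per kb. CNN1 was near or under the floor, with 0 reads in all 3 JUN Dox libraries, which allows up to 0.107 to 0.15 CPM by counting error alone.

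Induction of YAP5SA in vector cells changed 8 of the 33 tested genes (24.2%), 7 higher and 1 lower, where 30.1% of all genes tested were called, 15.6% higher and 14.4% lower. JUN overexpression without induction changed 7 (21.2%), 6 higher and 1 lower, against a background of 39%, 20.1% higher and 18.9% lower. Induction in JUN cells changed 6 (18.2%), 4 higher and 2 lower, against 21.4%, 11.2% higher and 10.3% lower. JUN overexpression in induced cells changed 13 (39.4%), 7 higher and 6 lower, against 35.6%, 18.4% higher and 17.2% lower. The share called was below that of all genes in 3 of the 4 comparisons and 39.4% against 35.6% in the other, so these counts are no result about the set as a whole.

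The median log2 fold change over the 33 genes was 0.12 on induction in vector cells and 0.0173 on induction in JUN cells. For JUN it was 0.13 without and 0.00875 with induction, and over all genes it lay between 0.000556 and 0.00719 in the 4 comparisons. The libraries compared did not overlap between groups for 16 of the 33 genes on induction in vector cells (43.9% of all genes), for 10 under JUN without induction (57.8%), for 12 on induction in JUN cells (39.3%) and for 12 under JUN with induction (43.4%). Called changes of at least 1 on the log2 scale were 3, 0, 1 and 3 in number, in the same order, where 7.52%, 8.79%, 4.66% and 8.65% of all genes reached that size. Of the 33 genes, 16 were called in at least 1 pairwise comparison and 17 in none. The map of fold changes places these calls by gene.

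**Figure D1:**
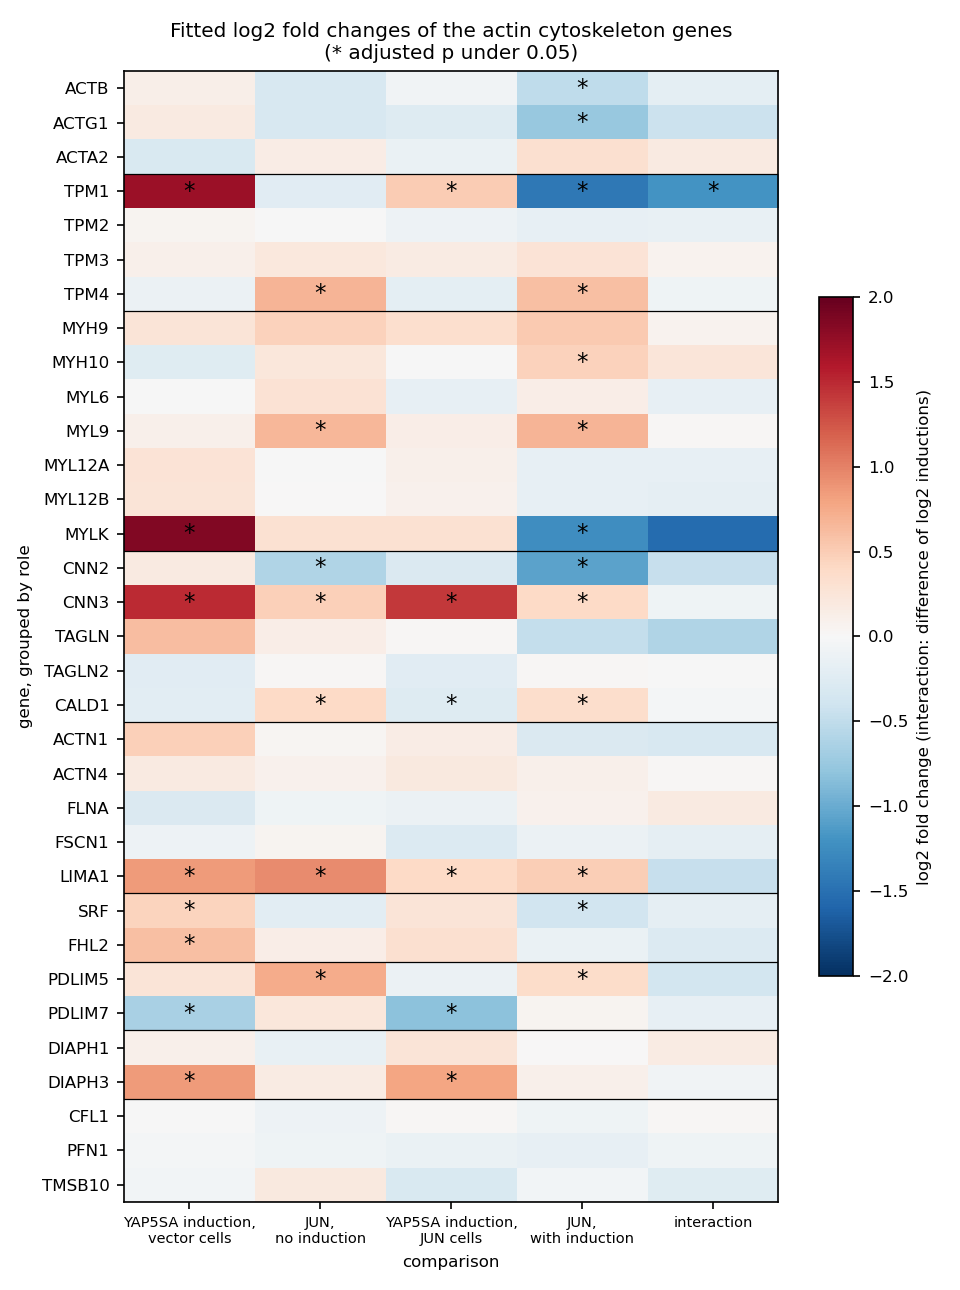
Fitted log2 fold changes of the 33 tested genes (rows, grouped by role) in the 4 pairwise comparisons and the interaction (columns), red for higher and blue for lower, with an asterisk at an edgeR adjusted p under 0.05. On induction in vector cells the strongest colours are those of MYLK, TPM1 and CNN3, which rose by 1.86, 1.71 and 1.5.

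The interaction, in which the log2 induction of vector cells is subtracted from that of JUN cells, tested whether JUN altered the response to YAP5SA. It called 1 gene of the 33, TPM1, with the lower induction in JUN cells, where 1.12% of all genes were called, 0.291% with a higher and 0.826% with a lower induction. The median interaction over the set was -0.16 against 0.0115 over all genes, and 9 of the 33 genes had a value above 0. DESeq2 called 3 of the 33, where it called 358 of all 14775 genes. With edgeR, 5 of the 33 had an unadjusted p under 0.05, for which the share over all genes was not counted.

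Of the 3 actins, ACTB and ACTG1 fell with JUN in induced cells. In the 3 other pairwise comparisons 0 were called by edgeR, 0 had an unadjusted p under 0.05 and DESeq2 called 0. ACTB (Entrez ID 60, chr7:5566040-5603533 on the minus strand of GRCh37) had 9770, 9049 and 9594 CPM in the vector EtOH libraries and 11030, 10090 and 9795 CPM in the vector Dox libraries. In JUN cells it read 7431, 7008 and 8439 CPM under EtOH and 5552, 7323 and 8847 CPM under Dox. All 6 vector libraries lay above all 6 JUN libraries, and the JUN Dox libraries were the most scattered. In induced cells ACTB fell by 0.51 with JUN (SE 0.16, edgeR adjusted p 0.0227), a 1.42-fold decrease. The call was lost without vector Dox replicate 1 (edgeR adjusted p 0.062) and without replicate 1 (0.0617) or 2 (0.0608) of JUN Dox, and with only the libraries of the comparison (0.0885). Without induction the difference was -0.31 (edgeR adjusted p 0.131), which passed without JUN Dox replicate 1 (0.0356).

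ACTG1 (Entrez ID 71, chr17:79476439-79490873 on the minus strand of GRCh37) had 4149, 3445 and 4134 CPM in the vector EtOH libraries and 4649, 4223 and 4401 CPM in the vector Dox libraries. The JUN cells had 3106, 2663 and 3626 CPM under EtOH and 2115, 2485 and 3273 CPM under Dox. The JUN Dox libraries lay below all vector libraries, whereas JUN EtOH and vector EtOH overlapped. JUN lowered ACTG1 1.69-fold in induced cells (log2 fold change -0.75, SE 0.17, edgeR adjusted p 0.00282), and this call was kept without each library in turn. Without induction the difference was -0.32 (edgeR adjusted p 0.135). Together the actins summed to 14220 to 15700 CPM in vector Dox and 7686 to 12140 CPM in JUN Dox.

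ACTA2 (Entrez ID 59, chr10:90694831-90751096 on the minus strand of GRCh37), the smooth muscle isoform, had 22.2, 21.4 and 24.3 CPM in the vector EtOH libraries and 14.96, 19.8 and 20.2 CPM in the vector Dox libraries. With JUN it stood at 22.0, 26.5 and 26.9 CPM under EtOH and 18.3, 24.9 and 25.6 CPM under Dox. Its mean was lowest in vector Dox, where all 3 libraries lay below vector EtOH by a small margin, and it was called in no pairwise comparison. Without JUN Dox replicate 1 it was higher with JUN in induced cells, by 0.47 (edgeR adjusted p 0.0218). Its value is uncertain, since 35.9% of its exon bases overlap genes on the opposite strand, FAS among them, and the use of strand in counting is not given in the sources used here. FAS was higher with JUN by 0.31 without and 0.55 with induction (edgeR adjusted p 0.0339 and 0.00136).

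Tropomyosins lie along the filament groove and set which myosins may engage. TPM1 (Entrez ID 7168, chr15:63334819-63364114 on the plus strand of GRCh37) had the clearest response of the set. It stood at 39.6, 41.0 and 36.8 CPM in the vector EtOH libraries and 148.9, 115.6 and 118.6 CPM in the vector Dox libraries. In JUN cells the libraries had 34.1, 32.7 and 33.5 CPM under EtOH and 49.4, 43.3 and 49.5 CPM under Dox. The 3 vector Dox libraries lay far above every other library, while JUN Dox lay only slightly above vector EtOH.

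YAP5SA induction raised TPM1 3.26-fold in vector cells (log2 fold change 1.71, SE 0.11, edgeR adjusted p 3.34e-08) and 1.42-fold in JUN cells (0.50, SE 0.11, edgeR adjusted p 0.00393). The inductions differed by -1.2 (SE 0.15, edgeR adjusted p 0.000586). In induced cells TPM1 was 2.69-fold lower with JUN (log2 fold change -1.43, SE 0.11, edgeR adjusted p 1.68e-07), whereas without induction the difference was -0.23 (SE 0.11, edgeR adjusted p 0.108) with the JUN libraries all below the vector libraries, and it passed without vector Dox replicate 1 (edgeR adjusted p 0.0399). Induction in vector cells and JUN in induced cells share the vector Dox libraries, so these values are not independent. A stretch of 22.7% of the TPM1 exon bases overlaps annotated antisense transcripts, whose reads cannot be told apart from those of TPM1.

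TPM4, a tropomyosin of nonmuscle cells, was called higher in both JUN comparisons and was not called on induction. Its mean was 385 ± 25.4 and 355 ± 10.5 CPM in vector cells under EtOH and Dox, and 616 ± 41.1 and 536 ± 27.5 CPM in the matching JUN cells (SD, n = 3). JUN raised it 1.6-fold without induction (log2 fold change 0.68, edgeR adjusted p 0.000117) and 1.51-fold with induction (0.60, edgeR adjusted p 0.000355), with no overlap of libraries in either case. TPM2 and TPM3 were called in no comparison, and their log2 fold changes stayed between -0.16 and 0.27. Without JUN Dox replicate 1, TPM3 was called higher with JUN in induced cells (0.37, edgeR adjusted p 0.0286). The 4 tropomyosins summed to 1170 to 1268 CPM in vector EtOH and 1254 to 1381 CPM in vector Dox. The JUN cells had 1407 to 1629 CPM under EtOH and 1425 to 1708 CPM under Dox. TPM1 was thus a minor part of the tropomyosin reads in every group.

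**Figure D2:**
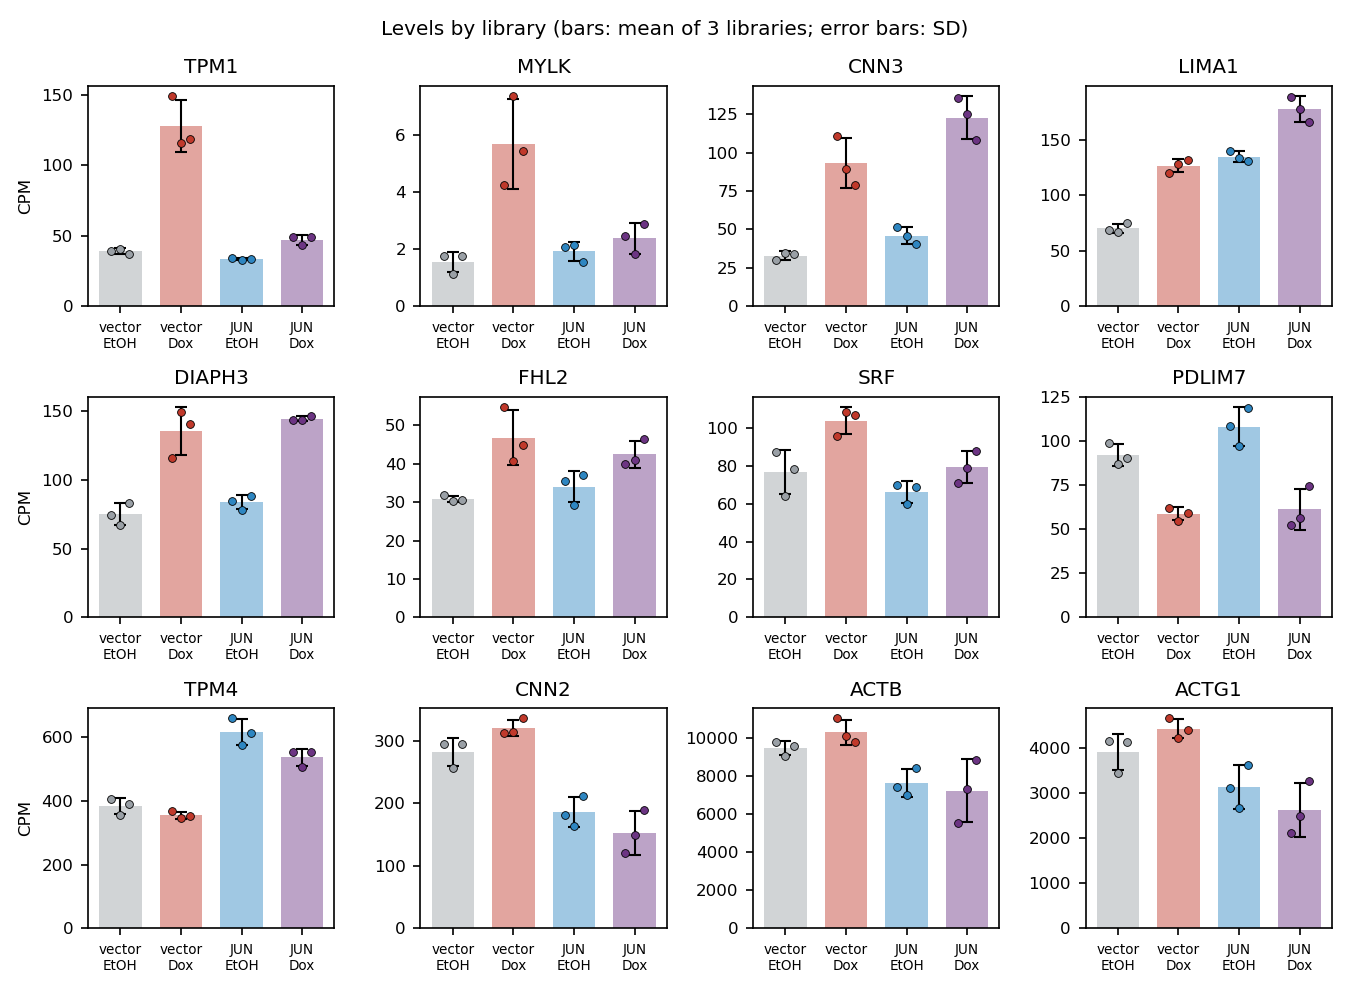
Levels in CPM of 12 genes by library. Points are single libraries, bars the mean of the 3 libraries of a group and error bars the SD. TPM1 and MYLK are high in vector Dox alone, CNN3 and DIAPH3 in both Dox groups, and TPM4 in both JUN groups, while CNN2 is low in both JUN groups.

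Of the 7 myosin II genes, MYLK gave the largest change. MYLK (Entrez ID 4638, chr3:123328896-123603179 on the minus strand of GRCh37) was expressed at a low level, with 23 to 163 reads per library. It stood at 1.75, 1.15 and 1.75 CPM in the vector EtOH libraries and 4.23, 7.35 and 5.45 CPM in the vector Dox libraries. In JUN cells the libraries had 2.07, 2.15 and 1.55 CPM under EtOH and 2.46, 1.82 and 2.88 CPM under Dox. The vector Dox libraries lay above all others. JUN EtOH overlapped both remaining groups, and JUN Dox lay just above vector EtOH.

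Induction raised MYLK 3.63-fold in vector cells (log2 fold change 1.86, SE 0.26, edgeR adjusted p 7.50e-05), and in JUN cells the value was 0.31 (SE 0.27, edgeR adjusted p 0.457). Between the backgrounds, the induction differed by -1.55 (SE 0.37), which did not pass the threshold (edgeR adjusted p 0.0642). The difference passed with DESeq2 (adjusted p 0.00861), without the filter on low counts (edgeR adjusted p 0.0413) and without vector Dox replicate 1 (edgeR adjusted p 0.0231), and the highest adjusted p over all alternatives was 0.188. In induced cells MYLK was 2.37-fold lower with JUN (-1.24, SE 0.25, edgeR adjusted p 0.00131). The antisense gene MYLK-AS1 moved alongside, from 0.90 CPM in vector EtOH to 2.31 CPM in vector Dox (log2 fold change 1.35, edgeR adjusted p 0.00968). Annotated opposite-strand genes cover 3.1% of the MYLK exon bases, and reads from that overlap cannot be assigned.

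The motor itself changed less. MYH9, the heavy chain of nonmuscle myosin IIA, had 1181 ± 170 and 1414 ± 345 CPM in vector cells under EtOH and Dox, and 1617 ± 331 and 2035 ± 595 CPM in the matching JUN cells (SD, n = 3), and was called in no comparison, but without JUN Dox replicate 1 it was higher with JUN in induced cells, by 0.71 (edgeR adjusted p 0.0251). MYH10, the heavy chain of myosin IIB, was 1.38-fold higher with JUN in induced cells (log2 fold change 0.46, edgeR adjusted p 0.0258). That call was lost without vector Dox replicate 1, in which MYH10 was low at 108.5 CPM against 165.0 and 166.0 CPM (edgeR adjusted p 0.0683 and a value of 0.29 without it), without JUN Dox replicate 2 or 3 (0.0586 and 0.0798), and with only the libraries of the comparison (0.0696).

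MYL9, a regulatory light chain, stood at 5.48 ± 0.62 and 5.93 ± 0.10 CPM in vector cells under EtOH and Dox, and 8.73 ± 1.44 and 9.44 ± 3.75 CPM in the matching JUN cells (SD, n = 3). It rose with JUN by 0.66 without and 0.68 with induction (edgeR adjusted p 0.0361 and 0.0328). The first call was lost without vector EtOH replicate 2 or 3 or JUN EtOH replicate 1 or 3 (edgeR adjusted p 0.0703 to 0.125). The second was lost with only the libraries of the comparison (edgeR adjusted p 0.0773), without any 1 vector Dox library, and without JUN Dox replicate 2 or 3. Without the last it was 0.37 with an edgeR adjusted p of 0.194. MYL12A and MYL12B, neighbouring genes for near-identical regulatory light chains, were called in none of the comparisons. In vector Dox replicate 1 they read 348.2 and 340.5 CPM, and their highest values elsewhere were 252.2 and 246.2 CPM. The essential light chain MYL6 was called in none either, but without vector Dox replicate 1 it was higher with JUN in induced cells, by 0.49 (edgeR adjusted p 0.025).

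Calponins bind filaments and slow the myosin motor, and TAGLN, TAGLN2 and the caldesmon CALD1 are associated filament coats. CNN3, the calponin found in many nonmuscle cells (Entrez ID 1266, chr1:95362505-95392779 on the minus strand of GRCh37), had 29.9, 35.0 and 34.1 CPM in the vector EtOH libraries and 111.0, 89.2 and 78.9 CPM in the vector Dox libraries. In JUN cells it read 51.5, 45.6 and 40.6 CPM under EtOH and 135.3, 124.9 and 107.9 CPM under Dox. Within each background the Dox libraries lay clear of the EtOH libraries, and JUN Dox gave the highest values.

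CNN3 rose 2.82-fold on induction in vector cells (log2 fold change 1.5, SE 0.14, edgeR adjusted p 1.20e-06) and 2.67-fold in JUN cells (1.42, SE 0.14, edgeR adjusted p 3.72e-06). Between the backgrounds, its induction differed by -0.08 (SE 0.19, edgeR adjusted p 0.973). JUN added 0.48 without induction (edgeR adjusted p 0.0125) and 0.40 with induction (0.0297, libraries overlapping). The first was lost without vector EtOH replicate 1 or JUN EtOH replicate 1 (edgeR adjusted p 0.0542 and 0.0692). The second was lost without vector Dox replicate 2 or 3 or the first or second JUN Dox library (edgeR adjusted p 0.0622 to 0.129), and with only the libraries of the comparison (0.0755).

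CNN2 (Entrez ID 1265, chr19:1026585-1039067 on the plus strand of GRCh37), another calponin of nonmuscle cells, was called lower in both JUN comparisons. It had 295.0, 255.5 and 294.8 CPM in the vector EtOH libraries and 312.4, 313.5 and 335.2 CPM in the vector Dox libraries. The JUN cells had 180.7, 164.1 and 211.7 CPM under EtOH and 119.7, 148.7 and 188.8 CPM under Dox. Every JUN library lay below every vector library. JUN lowered CNN2 1.52-fold without induction (log2 fold change -0.60, SE 0.15, edgeR adjusted p 0.00469) and 2.10-fold with induction (-1.07, SE 0.15, edgeR adjusted p 5.55e-05), and both calls were kept without each library in turn. On induction its values were 0.19 in vector cells and -0.28 in JUN cells, neither called, but the latter was -0.47 without JUN Dox replicate 3 (edgeR adjusted p 0.0269).

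CALD1 was higher with JUN by 0.40 without and 0.36 with induction (edgeR adjusted p 0.00232 and 0.00526), from 197 ± 10.9 CPM in vector EtOH to 259 ± 11.1 CPM in JUN EtOH (SD, n = 3). Its fall on induction in JUN cells was small at 0.25 (edgeR adjusted p 0.0469) and was lost in 14 of 21 alternatives, among them each of the 11 that left out a library other than vector Dox replicate 1. In vector cells CALD1 was lower by a similar 0.21 (edgeR adjusted p 0.0767), which was called in 6 of 21 alternatives, DESeq2 (adjusted p 0.0101) and the fit without JUN Dox replicate 1 (edgeR adjusted p 0.043) among them. TAGLN, the smooth muscle protein SM22, read 66.1 CPM in vector Dox replicate 1 and 21.0 to 42.4 CPM in every other library, and was not called. Its count is uncertain, since 18.6% of its 75-base windows occur elsewhere in the genome and 34.1% of its exon bases overlap PCSK7 on the opposite strand. TAGLN2 stayed between 536 and 780 CPM and was not called.

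Among the crosslinkers, LIMA1 (also known as EPLIN), which stabilises filaments at cell junctions, was called higher in all 4 pairwise comparisons, as was CNN3. LIMA1 had 68.7, 66.8 and 75.1 CPM in the vector EtOH libraries and 120.0, 128.7 and 132.2 CPM in the vector Dox libraries. With JUN it stood at 140.3, 133.9 and 130.6 CPM under EtOH and 189.1, 178.1 and 166.4 CPM under Dox. Libraries did not overlap in any of the 4 comparisons, while vector Dox and JUN EtOH reached similar levels. Induction raised LIMA1 by 0.86 in vector cells (SE 0.09, edgeR adjusted p 5.06e-06) and 0.40 in JUN cells (SE 0.09, edgeR adjusted p 0.00489). JUN raised it by 0.94 without induction (edgeR adjusted p 1.76e-06) and 0.49 with induction (0.000711). The inductions differed by -0.46 (SE 0.13), with an edgeR adjusted p of 0.121 and a DESeq2 adjusted p of 0.0114.

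The other crosslinkers were not called. The alpha-actinin ACTN1 was higher by 0.47 on induction in vector cells (edgeR adjusted p 0.0615). It passed the threshold in 7 of 21 alternatives, among them those without vector Dox replicate 1 (0.61, edgeR adjusted p 0.0142) and without JUN Dox replicate 1 or 3 (0.0406 and 0.0369). ACTN4, the filamin FLNA and the fascin FSCN1 had log2 fold changes between -0.29 and 0.20 in the pairwise comparisons.

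SRF (Entrez ID 6722, chr6:43139007-43149244 on the plus strand of GRCh37) had 87.4, 64.3 and 78.2 CPM in the vector EtOH libraries and 95.8, 108.7 and 107.1 CPM in the vector Dox libraries. In JUN cells the libraries had 69.8, 59.8 and 69.1 CPM under EtOH and 71.0, 79.1 and 87.8 CPM under Dox. Vector Dox lay above the 3 other groups, which overlapped one another except that JUN Dox lay above JUN EtOH. SRF rose 1.35-fold on induction in vector cells (log2 fold change 0.44, SE 0.12, edgeR adjusted p 0.0123), a call lost without vector EtOH replicate 2 (edgeR adjusted p 0.0721). In JUN cells the value was 0.26 (edgeR adjusted p 0.143). In induced cells SRF was lower with JUN by 0.39 (SE 0.12, edgeR adjusted p 0.0212). That call was lost after correction for GC content (-0.30, edgeR adjusted p 0.0521) and without vector Dox replicate 2 or 3 or JUN Dox replicate 1 or 2 (edgeR adjusted p 0.0582 to 0.0811).

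FHL2, a LIM-only protein that binds SRF and is itself an SRF target, rose from 30.9 ± 0.78 CPM in vector EtOH to 46.7 ± 7.17 CPM in vector Dox (SD, n = 3), 1.51-fold (log2 fold change 0.60, SE 0.12, edgeR adjusted p 0.00187). In JUN cells it went from 33.97 ± 4.05 to 42.4 ± 3.60 CPM, a value of 0.32 that did not pass (edgeR adjusted p 0.0752) although the libraries did not overlap. It passed without vector Dox replicate 1 (edgeR adjusted p 0.0288).

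The promoters of these genes were searched for the binding motifs of the factors involved, in RefSeq windows of GRCh38.p14. Each window ran from 250 bases before to 50 after 1 annotated start per gene. Other starts of a gene were not searched. Whether the start used was the outermost or main one of its gene, MYLK and ACTA2 included, was not checked. A motif in the MYLK window may therefore belong to a transcript other than the one that encodes the kinase. Windows were given for 30 of the 34 genes, all but ACTB, MYL9, TAGLN and FSCN1. A CArG box on either strand was present in 7 of the 30 (23.3%) and in 454 of all 35116 promoters (1.29%). The genes were listed as SRF-linked, with SRF among them, so a higher share was built into the choice and is no result. The TEAD motif GGAATG was present in 6 (20%), namely MYH9, MYH10, MYL12A, MYLK, CALD1 and PFN1, against 14% of all promoters. The AP-1 motif TGANTCA, with C or G at N, was present in 1 (3.33%), TAGLN2, against 4.95%. None of the 3 motifs was found in the windows of TPM1, CNN3, LIMA1 or DIAPH3, which says only that these letters are not in these windows.

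The windows around the CArG boxes are shown for the 7 genes, because SRF is itself in the set and the box is its best known element, with the box in capitals and each window on the strand of its gene. ACTG1 is at chr17:81512859-81512918 (minus), TPM4 at chr19:16067340-16067399 (plus), MYLK at chr3:123620608-123620667 (minus), CNN2 at chr19:1026494-1026553 (plus), FLNA at chrX:154374694-154374753 (minus), SRF at chr6:43171214-43171293 (plus) and FHL2 at chr2:105438580-105438639 (minus), all in GRCh38.p14.
ACTG1: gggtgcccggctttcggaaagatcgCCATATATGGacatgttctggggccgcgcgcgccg
TPM4: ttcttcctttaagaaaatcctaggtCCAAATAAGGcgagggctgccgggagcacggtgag
MYLK: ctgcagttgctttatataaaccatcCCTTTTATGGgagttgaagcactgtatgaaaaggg
CNN2: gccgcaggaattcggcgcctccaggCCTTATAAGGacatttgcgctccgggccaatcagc
FLNA: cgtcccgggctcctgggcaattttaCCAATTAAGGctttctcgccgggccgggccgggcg
SRF: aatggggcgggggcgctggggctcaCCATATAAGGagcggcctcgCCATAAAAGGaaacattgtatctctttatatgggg
FHL2: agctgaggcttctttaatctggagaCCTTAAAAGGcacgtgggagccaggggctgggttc

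The boxes began 173 to 89 bases before the annotated start used, except in SRF, whose own window holds 2 boxes that began 30 and 10 bases before it. Of the 7 genes, 3 rose and 0 fell on induction in vector cells, namely MYLK, SRF and FHL2, where 15.6% of all genes rose and 14.4% fell. With JUN in induced cells 1 rose (TPM4) and 4 fell (ACTG1, MYLK, CNN2 and SRF), where 18.4% of all genes rose and 17.2% fell. Both comparisons use the vector Dox libraries, and MYLK and SRF are counted in both, so the counts are not independent. MYLK is included through its 1 window, whose start was not checked. With JUN alone 1 rose (TPM4) and 1 fell (CNN2), and on induction in JUN cells 0 were called. Of the 22 tested genes with a window and no box, 4 rose and 1 fell on induction in vector cells, and 5 rose and 1 fell with JUN in induced cells. These counts describe the genes and were not tested. A box in a window is no measure of binding, and a window without a box leaves other promoters of that gene unsearched.

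PDZ-LIM proteins tether kinases and other partners to actin through alpha-actinin or tropomyosin. PDLIM7 fell on induction in both backgrounds, from 92.3 ± 6.02 to 58.8 ± 3.70 CPM in vector cells (SD, n = 3, log2 fold change -0.65, edgeR adjusted p 0.00126) and from 108.3 ± 11 to 61.3 ± 11.9 CPM in JUN cells (-0.82, edgeR adjusted p 0.00032). The effect of JUN on it without induction was 0.23 and uncalled, but 0.46 with an edgeR adjusted p of 0.00232 after GC correction. PDLIM5 instead rose with JUN, from 130.4 ± 14.6 to 217.2 ± 11.1 CPM without induction (log2 fold change 0.74, edgeR adjusted p 6.65e-05) and from 155.1 ± 11.8 to 199.6 ± 5.72 CPM with induction (0.36, edgeR adjusted p 0.0121). On induction in vector cells PDLIM5 was called only without vector EtOH replicate 1 or vector Dox replicate 1, in the latter case at 0.30 (edgeR adjusted p 0.0344).

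Formins nucleate and elongate unbranched filaments. DIAPH3 rose from 75.1 ± 8.09 to 135.5 ± 17.2 CPM on induction in vector cells (SD, n = 3), 1.80-fold (log2 fold change 0.85, edgeR adjusted p 3.51e-05). In JUN cells it rose from 83.8 ± 5.29 to 144.7 ± 1.59 CPM, 1.73-fold (0.79, edgeR adjusted p 0.000124). The JUN contrasts gave 0.16 and 0.09 and were not called. The paralog DIAPH1 was not called, with log2 fold changes of -0.16 to 0.27 over the 4 comparisons.

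Of the 3 genes of monomer supply and filament turnover, 0 were called in any comparison, 0 had an unadjusted edgeR p under 0.05 and DESeq2 called 0. CFL1, the severing protein cofilin, had log2 fold changes of -0.10 to 0.02, and PFN1 of -0.17 to -0.04. For TMSB10 they were -0.30 to 0.19, but the spread in vector Dox was wide at 1065 ± 453 CPM (SD, n = 3). Without vector Dox replicate 1, TMSB10 was lower on induction in vector cells, by -0.47 (edgeR adjusted p 0.0339).

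The inductions in the empty-vector and JUN backgrounds share no library and can be set side by side. CNN3, DIAPH3, LIMA1 and TPM1 were called higher in both, which is 4 of the 7 higher calls in vector cells and 4 of the 4 in JUN cells, and PDLIM7 was called lower in both. MYLK, SRF and FHL2 passed the threshold in vector cells and not in JUN cells, and CALD1 in JUN cells and not in vector cells, where its value was similar. For these 4 genes the difference between the inductions did not pass the threshold (edgeR adjusted p 0.0642, 0.895, 0.75 and 0.979). TPM1 was the gene for which the difference was called. The JUN contrasts without and with induction share no library either. CALD1, CNN3, LIMA1, MYL9, PDLIM5 and TPM4 were called higher in both, 6 of 6 calls without and 6 of 7 with induction, and CNN2 lower in both.

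**Figure D3:**
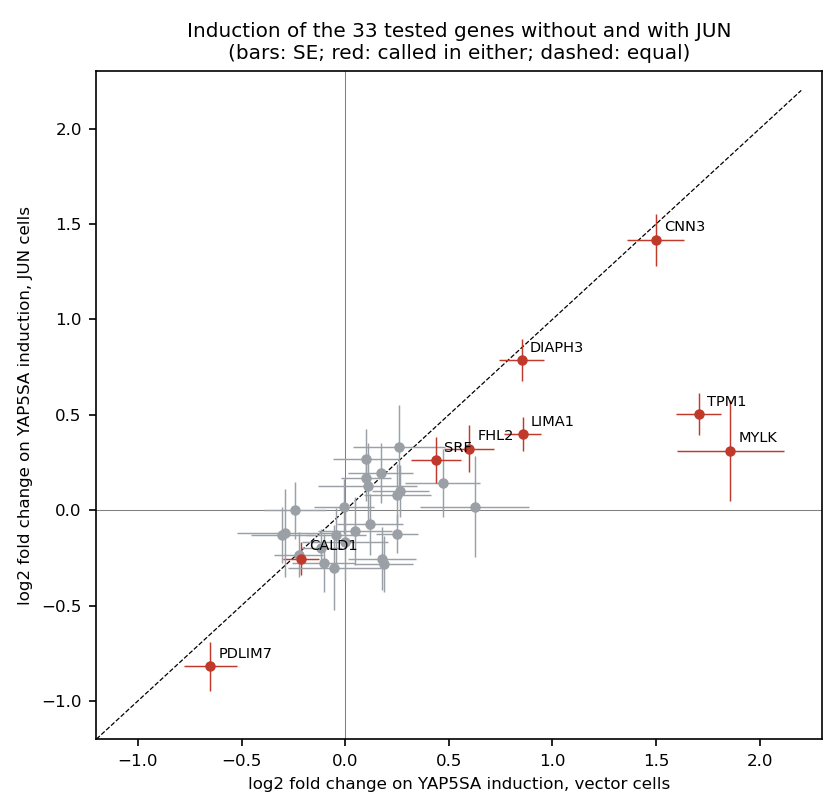
Log2 fold change on YAP5SA induction in vector cells (horizontal) and in JUN cells (vertical) for the 33 tested genes, with SE bars, red where called in either and a dashed line where the inductions are equal. CNN3, DIAPH3 and PDLIM7 lie on or near the line, whereas TPM1, at 1.71 and 0.50, and MYLK, at 1.86 and 0.31, lie well below it.

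A wider list of 103 actin genes outside the 34 was examined, of which 101 were tested. On induction in vector cells 17 rose and 13 fell (29.7% called), and on induction in JUN cells 12 rose and 9 fell (20.8%), where 30.1% and 21.4% of all genes were called. JUN without induction raised 46 and lowered 9 (54.5% called, 45.5% higher, against 39% and 20.1% of all genes), with a median log2 fold change of 0.27. This count depended on JUN EtOH replicate 1, without which 29 rose and 5 fell, while over all genes the number called went from 5766 to 3823. With JUN in induced cells 33 rose and 7 fell (39.6% called, against 35.6% of all genes). In the interaction the formin DAAM1 was called, with a difference of -0.92 between the inductions (edgeR adjusted p 0.0207).

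Of the 17 genes of the Arp2/3 complex and its activators, which build branched networks, 8 rose and 0 fell with JUN alone, led by ABI1, WASL and CTTN at 0.57, 0.57 and 0.54. Of all genes, 20.1% rose and 18.9% fell in that comparison, which is also the background for the lists that follow. On induction in vector cells 2 rose, ARPC5L (0.65) and ARPC5 (0.44), and BRK1 fell by 0.37. Among 47 tested filament-binding proteins JUN alone raised 22 and lowered 5, with LPP (0.89) and MICAL2 (0.74) highest and PDLIM4 (-0.91) and PDLIM2 (-0.78) lowest. Induction raised PDLIM2 by 1.88 in vector cells and 1.5 in JUN cells, whereas the PDZ-LIM gene PDLIM7 fell in both. The synaptopodin SYNPO fell by 1.32 on induction in vector cells and was 1.78 higher with JUN in induced cells, comparisons that share the vector Dox libraries.

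The coactivators of SRF were not called on induction. MRTFA was called in no comparison, with 56.8 to 70.2 CPM (group means), and MRTFB was higher with JUN by 0.37 without and 0.48 with induction (edgeR adjusted p 0.0158 and 0.00429). Of the 14 genes in this list, 5 rose and 2 fell with JUN alone, and 0 were called on induction in JUN cells, where 21.4% of all genes were called, 0 of the 14 had an unadjusted edgeR p under 0.05 and DESeq2 called 0. ELK3, an ETS factor that joins SRF on DNA, was the largest rise with JUN, from 44.8 ± 7.80 to 122.2 ± 8.92 CPM (SD, n = 3, log2 fold change 1.45, edgeR adjusted p 1.14e-05). SMTN, a smoothelin of contractile cells, went from 102.0 ± 13.7 to 267.3 ± 23.5 CPM (1.39, edgeR adjusted p 4.29e-06). VCL, a focal adhesion gene and known SRF target, was called in no comparison.

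**Figure D4:**
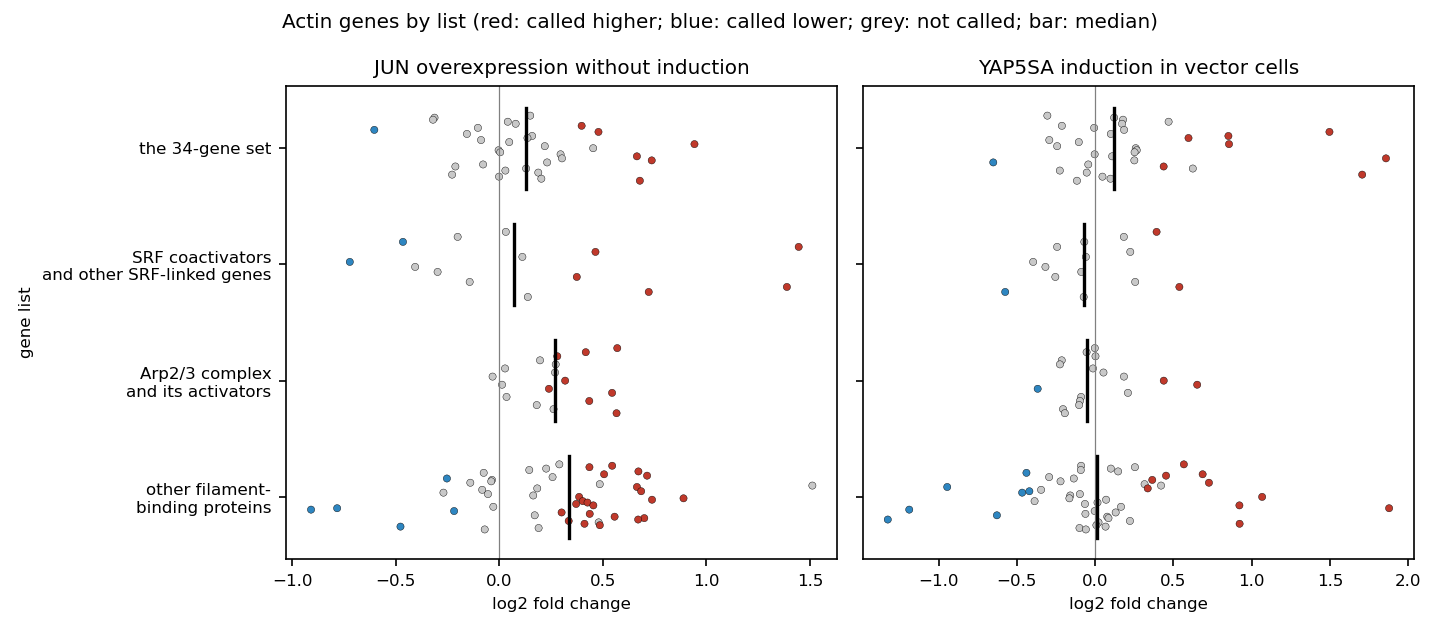
Log2 fold changes of the actin genes by list (rows), for JUN overexpression without induction (left) and YAP5SA induction in vector cells (right). Each point is a gene, red if called higher, blue if called lower and grey if not called, and the black bar is the list median. On the left the Arp2/3 and filament-binding lists have medians of 0.27 and 0.34, and on the right the medians run from -0.0707 for the SRF-linked list to 0.122 for the 34 genes.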

How the data were processed

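Libraries were made from poly(A) RNA and sequenced as single-end reads of 75 bases. The authors trimmed the reads (cutadapt 4.2), aligned them to hg19 (Bowtie2 2.3.5.1, per the submitters' processing notes) and deposited raw counts per gene, obtained with countOverlaps of GenomicRanges. The gene annotation, the use of strand and the handling of multiply mapping reads are not given in the sources used here. Bowtie2 does not split reads across introns, so reads over exon junctions may have been lost.

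Entrez IDs were named from a RefSeq table (GRCh38, 23308 of 23459 IDs matched). Gene positions and union exon lengths are those of GENCODE v44lift37 on GRCh37, 1-based. All 12 columns matched 1 sample each, and no library was a copy of another (between replicates, chi-square per degree of freedom 7.89 to 60.1). Total counts were 18594867 to 28993487 per library. Floors of 3 counts cover counting error only.

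Counts were tested with edgeR 4.0.16 under R 4.3.3 (quasi-likelihood test, robust). The filterByExpr function kept 14775 genes (minimum count 10, minimum total 15), scaling was TMM, and 1 model of the 4 groups was fitted to all 12 libraries (biological coefficient of variation 12.5%). A gene was called at a Benjamini-Hochberg adjusted p under 0.05 over all genes tested. SEs were derived from the fold change and its F statistic. The procedure was checked on simulated counts. The members and gene lists were chosen with earlier results of these data known, so counts over them are descriptions. All 34 members were reported. Values per library were given for members called with a change of 1 or more on the log2 scale, for those called in the interaction, for the actins and for SRF, and LIMA1 was added after its values were seen. Of each pathway list, at most the 3 highest and the 3 lowest called genes averaging 5 CPM or more were eligible per comparison. MRTFA, MRTFB and VCL were added after their values were seen. One pathway list enters the pathway totals, but its own results are not reported here.

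Alternatives were DESeq2 1.42.0, RLE or upper-quartile factors, no filter, a mean of at least 5 CPM, GC correction, a replicate block, both together, a threshold of 1 on the log2 change in the test itself, only the libraries of a comparison, and each library left out in turn.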

Additional observations from a re-analysis of the deposited data

Results flagged for a closer look

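The induction by YAP5SA differed between JUN and vector cells, by the interaction term of the edgeR model over all 14775 genes, for TPM1 among the 33 tested members and for DAAM1 among the pathway genes described. In both the log2 induction was smaller in JUN cells. TPM1 was induced by 1.71 in vector cells and by 0.50 in JUN cells, a difference of -1.2 (SE 0.15, edgeR adjusted p 0.000586), and it was higher with Dox in 3 of 3 libraries in both backgrounds. DAAM1, a formin, was higher with Dox by 0.45 in vector cells and lower by 0.47 in JUN cells, a difference of -0.92 (SE 0.18, edgeR adjusted p 0.0207). Its mean went from 13.3 to 18.3 CPM with Dox in vector cells and from 21.9 to 15.9 CPM in JUN cells.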

How the results depend on the processing

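Over the alternatives, 3467 single-gene values kept their side of the threshold, 48 gained a call and 77 lost one. These counts include the test against a log2 change of 1, which asks for a larger change and so loses calls by design. Counts out of 21 alternatives leave that test out. No called member changed sign, but uncalled values near 0 did, such as TPM2 for JUN without induction in 13 of 21 alternatives. In an edgeR test against a log2 change of 1, the members called were 3 (induction in vector cells), then 0 with JUN and no induction (0 at an unadjusted p under 0.05), 0 on induction in JUN cells (1 unadjusted), 1 for JUN with induction and 0 in the interaction (2 unadjusted). The pathway genes called were 3, 0 (2 unadjusted), 2, 2 and 0 (0 unadjusted) in that order. Of all 14775 genes, that test called 383, 485, 179, 478 and 17. With only the libraries of the comparison, 11 members were called for JUN without induction (8 higher, 3 lower), where 7282 of all 14375 genes were called. In the interaction DESeq2 called 3 members and 5 pathway genes, and no filter on low counts gave 2 members. Over all genes these settings called 358 of 14775 and 179 of 20316. Leaving out each library in turn gave 8 to 13 members for JUN with induction (8 without JUN Dox replicate 2), 34 to 62 pathway genes for JUN without induction, and 1 to 2 members and 1 to 4 pathway genes in the interaction. Over all genes these fits called 4025 to 5539, 3823 to 6765 and 97 to 242 genes, in the same order of comparisons. The members' median ran from -0.115 to 0.0816 for induction in JUN cells and from -0.108 to 0.103 for JUN with induction, both negative without JUN Dox replicate 3. The cause was not tested. With upper-quartile scaling 43.4% of calls on induction in vector cells were higher over all genes, against 2309 of 4443 under TMM.

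The replicate numbers paired the libraries at most in part. Correlations of same-numbered deviations ran from -0.258 to 0.466, and 7 of 12 libraries correlated best with their own number. For replicates 1, 2 and 3 the correlations were 0.283, 0.0118 and 0.466 between JUN EtOH and JUN Dox. Between vector EtOH and vector Dox they were -0.23, -0.258 and 0.106. A replicate block gave 10, 7, 5, 15 and 1 members in the order above, and with GC correction 4 pathway genes in the interaction. Of all genes, the block called 4588, 5871, 3256, 5329 and 197, and with GC correction 228 in the interaction. A gene that misses the threshold with 3 libraries per group is not shown to be unaffected.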

Other observations

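Several members lay near the threshold, so that an alternative setting decided the call. MYH9 was higher with JUN by 0.53 in induced cells (edgeR adjusted p 0.0784) and by 0.45 without induction (0.118), and it was called in 5 of 21 alternatives in the first case, among them DESeq2 (adjusted p 0.0461), and in 2 in the second. FSCN1 went from 0.05 to 0.32 for JUN without induction after GC correction (edgeR adjusted p 0.0413), and TAGLN from 0.62 to 0.69 on induction in vector cells (edgeR adjusted p 0.0416). ACTA2 was lower on induction in vector cells by 0.30 (edgeR adjusted p 0.137), and with a replicate block by 0.32 (0.0429). MYL12A was called higher on induction in vector cells only without vector Dox replicate 3 (0.40, edgeR adjusted p 0.0444).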
